A study of Homo sapiens with 9 samples.

Results

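ER-phagy receptors are membrane or membrane-bound proteins that mark pieces of the endoplasmic reticulum (ER) for autophagy, and their transcripts are described here in DMS273, an established human small cell lung cancer cell line. The set was chosen by gene name and holds RETREG1, RETREG2, RETREG3, TEX264, CCPG1, SEC62, RTN3 and ATL3. All 8 were found once each among the 67140 genes of the count table, and all 8 passed the filter on low counts that left 18847 genes for testing. RNA was sequenced from 3 groups of 3 libraries. The first group carried CRISPRv2 knockouts of ATG7 and SQSTM1 together (ATG7/SQSTM1 KO), the second a knockout of ATG7 alone (ATG7 KO), and the third a scrambled guide in cells labelled WT (control). All were grown in RPMI medium with 10% fetal bovine serum. Whether a knockout line is 1 clone or a pool, where its guides cut and whether replicate libraries are separate cultures is not stated in the labels, so p-values may measure technical spread only.

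An ER-phagy receptor spans or touches the ER membrane and carries a short motif that binds proteins of the LC3 and GABARAP family on the growing autophagosome. ATG7 is the E1-like enzyme that activates these proteins for attachment to membrane lipid. SQSTM1 encodes p62, a receptor for ubiquitylated cargo that is itself an autophagy substrate. The receptors divide the ER among them. RETREG1 (also known as FAM134B) and its paralogs RETREG2 and RETREG3 bend membranes through a reticulon homology domain, RTN3 and ATL3 act on tubules, TEX264 and CCPG1 are single-pass membrane proteins, and SEC62 belongs to the protein translocation machinery.

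The windows around the start sites of the receptor genes were searched for elements through which autophagy and ER stress factors act, and the matches found are shown. All 8 genes had at least 1 window in the RefSeq promoter table (GRCh38.p14), 11 windows in all, each reaching from 250 bases before the start to 50 bases after it. The CLEAR element, to which TFEB and TFE3 bind, was searched as the 10 letters in capitals in the RETREG2 stretches printed here, and its E-box core as CACGTG; both read the same on either strand, and each full element holds the core. The composite element of CHOP and ATF4 was searched as TTGCATCA, the ATF6 site as TGACGTGG, and the ER stress response element as CCAAT and CCACG separated by any 9 bases, each on both strands. RETREG2 held 2 CLEAR elements in 1 window, of which the more upstream one begins 74 bases before the start, and SEC62 held 1 ATF6 site, which begins 17 bases before the start. The stretches of 30 bases run 5′ to 3′ on the plus strand with the match in capitals, at chr2:219178191-219178220, chr2:219178218-219178247 and chr3:169966779-169966808.
RETREG2, upstream match: gttaggccgcGTCACGTGACgggctcagcg
RETREG2, downstream match: gcgctccgcaGTCACGTGACgctcgtccgc
SEC62, ATF6 site on the opposite strand: ccctcctcgctCCACGTCAgagggaaccgg
Of 35116 windows in the table, 0.353% held a CLEAR element, 7.26% its core, 0.866% the CHOP and ATF4 element, 0.729% the ATF6 site and 0.0769% the ER stress response element. At least 2 CLEAR elements stood in 7 windows. The other receptor windows held none of these letters, and a match is a description of the sequence only.

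The libraries held 28675576 to 34222098 counts, and mitochondrially encoded genes took 3.87% to 6.04% of them. Levels are TMM-scaled CPM, that is, counts relative to library size, and log2 changes, their standard errors (SE) and adjusted p-values come from edgeR. ATG7 averaged 10.6 ± 0.55 CPM in ATG7/SQSTM1 KO, 11.7 ± 1.5 CPM in ATG7 KO and 27.1 ± 0.9 CPM in control, and SQSTM1 averaged 51.9 ± 3.3, 391 ± 4.5 and 376 ± 3.5 CPM in the same order (SD, n = 3 each). All 9 neuroendocrine markers of this cancer had counts in every group. Summed, the neuroendocrine markers stood at 927 to 953 CPM in ATG7/SQSTM1 KO, 499.7 to 513 CPM in ATG7 KO and 831 to 871 CPM in control. In bulk RNA, fewer cells of a type and less RNA per cell cannot be told apart.

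Per kilobase of annotated exon, the 8 receptors spanned a wide range and kept 1 order in all groups. RTN3 stood highest with 38.1 ± 0.37 CPM per kb in ATG7/SQSTM1 KO, 32.4 ± 0.7 in ATG7 KO and 44.2 ± 0.7 in control, a level that 94.9% of tested genes did not reach in control. SEC62 followed with 15.5 ± 0.43, 19.2 ± 0.39 and 14.2 ± 0.17 CPM per kb in the same order of groups. RETREG2, RETREG3, ATL3, TEX264 and CCPG1 came next, with control means of 9.47, 6.56, 6.01, 4.01 and 3.37 CPM per kb. RETREG1 was far below the others at 0.429 ± 0.064 CPM per kb in ATG7/SQSTM1 KO, 0.172 ± 0.026 in ATG7 KO and 0.367 ± 0.065 in control. Neighbours in this order were separated in every group except RETREG3 and ATL3 in control, whose libraries overlapped at 6.22 to 6.84 and 5.73 to 6.30 CPM per kb. These lengths join all annotated exons, so a gene that uses a short isoform, as RTN3 can, is understated.

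**Figure D1:**
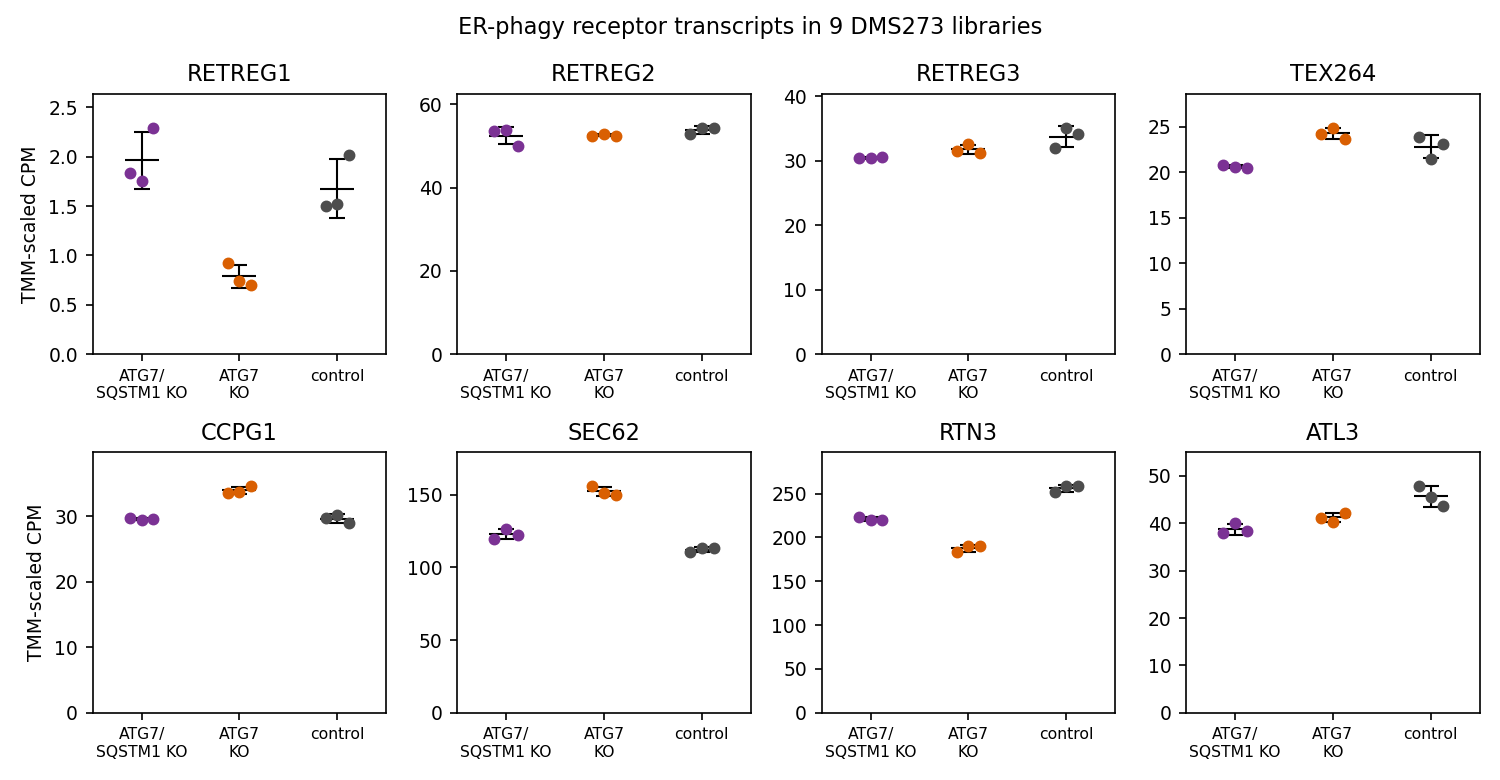
TMM-scaled CPM (vertical axis, from 0, own scale per gene) of the 8 receptors in ATG7/SQSTM1 KO, ATG7 KO and control libraries; points are libraries, and bars are the mean and SD of 3. RETREG1 stands lowest in ATG7 KO, RTN3 stands in the order ATG7 KO, ATG7/SQSTM1 KO, control from low to high, SEC62 in the reverse order, and RETREG2 lies at 50.1 to 54.4 CPM throughout.

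Of the RETREG family, RETREG1 (ENSG00000154153; GRCh38 chromosome 5, 16473038 to 16617058, minus strand), the receptor of ER sheets, is the scarcest and had the largest log2 changes. Its levels were 1.84, 1.75 and 2.29 CPM in ATG7/SQSTM1 KO, 0.921, 0.738 and 0.702 CPM in ATG7 KO, and 1.495, 1.52 and 2.02 CPM in control. Every ATG7 KO library lay below every other library, while the other groups overlapped. RETREG1 thus fell in ATG7 KO against control (log2 change −1.09, SE 0.23, edgeR adjusted p = 0.000413), and 7.95% of tested genes fell as far or further. It was higher in ATG7/SQSTM1 KO than in ATG7 KO (log2 change 1.31, SE 0.23, edgeR adjusted p = 4.09e-05). Against control, ATG7/SQSTM1 KO differed by 0.23 with a 95% interval of −0.22 to 0.67 (edgeR adjusted p = 0.446). These values rest on 22 to 72 counts per library, and 22 counts carry an exact Poisson 95% interval of 13.8 to 33.3, which covers counting error only. RefSeq gives RETREG1 2 start windows, which counts per gene do not separate.

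The neuroendocrine markers moved beside RETREG1. All 9 fell in ATG7 KO against control, where 28.3% of all tested genes were called lower. All 9 were higher in ATG7/SQSTM1 KO than in ATG7 KO, where 30.5% of all tested genes were called higher. The summed levels are given above. In ATG7/SQSTM1 KO against control 4 were higher and 3 lower, where 19.0% of all tested genes were called higher and 19.6% lower. Of all tested genes, 28.4% were called higher in ATG7 KO against control, and 29.9% lower in ATG7/SQSTM1 KO against ATG7 KO. Beside these shares, the non-neuroendocrine markers YAP1, REST, ANXA1 and VIM were all higher in each knockout than in control. They were also all lower in ATG7/SQSTM1 KO than in ATG7 KO. Summed with POU2F3, which was under 1 CPM and was not tested, they stood at 581 to 604 CPM in ATG7/SQSTM1 KO, 799 to 843 CPM in ATG7 KO and 522 to 541 CPM in control. Fibroblast markers stood at 322 to 343, 652 to 691 and 178 to 192 CPM in the same order of groups, with none of the 6 at 0. In ATG7 KO against control 4 of them were called higher and 0 lower, where 28.4% of all tested genes were called higher. In ATG7/SQSTM1 KO against control 5 were called higher and 0 lower, where 19.0% of all tested genes were called higher. In ATG7/SQSTM1 KO against ATG7 KO 2 were higher and 4 lower, where 30.5% of all tested genes were called higher and 29.9% lower. Blood cell markers stood at 1.68 to 2.48, 6.67 to 7.68 and 2.04 to 2.69 CPM. Of these 6, CD3E, HBB and LYZ had no count. PTPRC and CD68, the members tested, were both called higher in ATG7 KO than in control. In ATG7/SQSTM1 KO against control, 1 of the tested members was called higher and 1 lower. The markers of keratinocytes and airway epithelium stood at 2.71 to 2.93, 9.32 to 9.49 and 3.05 to 3.62 CPM. Nearly all of this was TP63, the only member tested, at 2.67, 9.13 and 3.14 CPM. The part of these shifts in the RETREG1 result was not tested.

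RETREG2 (ENSG00000144567; chromosome 2, 219176225 to 219185479, plus strand), which holds the paired CLEAR elements, was not called in any comparison. It had 53.5, 53.8 and 50.1 CPM in ATG7/SQSTM1 KO, 52.5, 52.9 and 52.4 CPM in ATG7 KO, and 52.8, 54.3 and 54.4 CPM in control. The 95% intervals of its log2 change were −0.12 to 0.05 in ATG7 KO against control and −0.12 to 0.04 in ATG7/SQSTM1 KO against control. TFEB, which binds that element, rose to 10.9 ± 0.73 CPM in ATG7 KO, against 6.55 ± 0.45 CPM in control (edgeR adjusted p = 7.5e-07). TFEB was not called in ATG7/SQSTM1 KO against control, at 7.43 ± 0.26 CPM (edgeR adjusted p = 0.153). TFE3, a relative of TFEB, rose to 65.2 ± 1.8 CPM in ATG7 KO, against 53.8 ± 0.86 CPM in control (edgeR adjusted p = 1.48e-06). TFE3 was also called higher in ATG7/SQSTM1 KO than in control, at 61.3 ± 1.2 CPM (edgeR adjusted p = 0.000326). TFEB and TFE3 were named after their values were seen. A link between these factors, the element and the RETREG2 level was not tested. RETREG2 shares 291 exon bases with CNPPD1 on the opposite strand, and the strand setting of the counting is not known.

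RETREG3 (ENSG00000141699; chromosome 17, 42579513 to 42610623, minus strand) stood at 30.4, 30.4 and 30.6 CPM in ATG7/SQSTM1 KO, 31.5, 32.6 and 31.2 CPM in ATG7 KO, and 32.0, 35.2 and 34.1 CPM in control. The ATG7/SQSTM1 KO libraries were the lowest, and the other groups overlapped. It was called lower in ATG7/SQSTM1 KO than in control (log2 change −0.15, SE 0.047, edgeR adjusted p = 0.0165). That call was lost with DESeq2 (adjusted p = 0.0652), without control replicate 2 (edgeR adjusted p = 0.0906) and without control replicate 3 (edgeR adjusted p = 0.0526). In ATG7 KO against control its log2 change was −0.09 (edgeR adjusted p = 0.127), and scaling by library totals alone gave −0.13 (edgeR adjusted p = 0.0255). RETREG3 shares 139 of its 5145 exon bases with TUBG1 on the opposite strand. TUBG1 averaged 128 ± 4.8 CPM in ATG7/SQSTM1 KO, 161 ± 5.5 CPM in ATG7 KO and 144 ± 4 CPM in control, and its part in the RETREG3 counts was not tested.

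The receptors of ER tubules were both lower in the knockouts. RTN3 (ENSG00000133318; chromosome 11, 63681446 to 63759891, plus strand) is a reticulon whose long form binds the LC3 family, while its short forms lack that region and are counted with it here. It had 223, 219.7 and 219 CPM in ATG7/SQSTM1 KO, 183, 190.1 and 190.1 CPM in ATG7 KO, and 252, 259 and 259 CPM in control. No groups overlapped, and ATG7/SQSTM1 KO lay between the other groups. RTN3 fell by 0.45 on the log2 scale in ATG7 KO against control (SE 0.027, edgeR adjusted p = 6.19e-12), which leaves 0.733 times the control level. It fell by 0.21 in ATG7/SQSTM1 KO against control (SE 0.027, edgeR adjusted p = 1.6e-06) and was higher in ATG7/SQSTM1 KO than in ATG7 KO by 0.23 (SE 0.027, edgeR adjusted p = 1.67e-07). RTN3P1, a processed pseudogene that can share its reads, held 1.85% as many counts as RTN3 over all libraries.

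ATL3 (ENSG00000184743; chromosome 11, 63624087 to 63671921, minus strand), a GTPase of the atlastin family that joins ER tubules, starts 9525 bases from RTN3 and runs the opposite way. Its levels were 37.9, 40.0 and 38.3 CPM in ATG7/SQSTM1 KO, 41.2, 40.3 and 42.3 CPM in ATG7 KO, and 47.9, 45.6 and 43.6 CPM in control. The control libraries were the highest, and the knockout libraries did not overlap each other by a narrow margin. ATL3 fell by 0.24 on the log2 scale in ATG7/SQSTM1 KO against control (SE 0.044, edgeR adjusted p = 0.000183) and by 0.15 in ATG7 KO against control (SE 0.044, edgeR adjusted p = 0.00737). The second call was lost without control replicate 1 (log2 change −0.10, edgeR adjusted p = 0.0809). Between ATG7/SQSTM1 KO and ATG7 KO the log2 change was −0.09 (edgeR adjusted p = 0.083), and without ATG7/SQSTM1 KO replicate 2 it was −0.12 (edgeR adjusted p = 0.0457).

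SEC62 (ENSG00000008952; chromosome 3, 169966635 to 169998373, plus strand) works in protein translocation and also delivers excess ER to autophagy after stress has ended. It rose in both knockouts, with 119.7, 127 and 122 CPM in ATG7/SQSTM1 KO, 156, 151 and 150.05 CPM in ATG7 KO, and 111, 113 and 113 CPM in control. The groups did not overlap, and ATG7/SQSTM1 KO again lay between the others. The log2 change was 0.44 in ATG7 KO against control (SE 0.031, edgeR adjusted p = 9.82e-11), a 1.36-fold rise, and 0.13 in ATG7/SQSTM1 KO against control (SE 0.032, edgeR adjusted p = 0.00228). SEC62 was lower in ATG7/SQSTM1 KO than in ATG7 KO by a log2 change of −0.31 (SE 0.031, edgeR adjusted p = 1.98e-08).

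Genes of the translocation machinery around SEC62 were mostly higher in ATG7 KO. Of 10 tested, 8 rose and 1 fell against control, where 28.4% of all tested genes were called higher and 28.3% lower. The median log2 change was 0.28, beside −0.02 over all tested genes. TRAM1, a membrane protein that helps nascent chains insert, reached 103 ± 2.3 CPM in ATG7 KO, against 69.4 ± 0.96 CPM in control. SSR3, a subunit of the translocon-associated complex, reached 307 ± 2.1 CPM in ATG7 KO, against 249 ± 6.4 CPM in control. In ATG7/SQSTM1 KO against control 3 rose and 3 fell, where 19.0% of all tested genes were called higher and 19.6% lower, with a median of 0.04 beside −0.01 over all tested genes. SEC61A1, the channel itself, fell to 345 ± 3.5 CPM in ATG7/SQSTM1 KO, against 405 ± 1.9 CPM in control, and stood at 488 ± 7.7 CPM in ATG7 KO. Between ATG7/SQSTM1 KO and ATG7 KO 7 were lower and 0 higher with edgeR, as with DESeq2, and 0 were higher at an unadjusted edgeR p under 0.05; of all tested genes 29.9% were called lower and 30.5% higher.

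CCPG1 (ENSG00000260916; chromosome 15, 55340032 to 55408510, minus strand) binds both the LC3 family and the kinase scaffold RB1CC1, and its transcript is known to rise in ER stress. It rose in ATG7 KO, with 29.7, 29.45 and 29.6 CPM in ATG7/SQSTM1 KO, 33.6, 33.7 and 34.6 CPM in ATG7 KO, and 29.7, 30.3 and 28.9 CPM in control. The ATG7 KO libraries lay above all others, and the remaining groups overlapped. The log2 change was 0.20 in ATG7 KO against control (SE 0.045, edgeR adjusted p = 0.000812). In ATG7/SQSTM1 KO against ATG7 KO it was −0.20 (SE 0.045, edgeR adjusted p = 0.000612). Against control, ATG7/SQSTM1 KO had a 95% interval of −0.10 to 0.09 (edgeR adjusted p = 0.963). The readthrough gene DNAAF4-CCPG1 shares 3405 exon bases with CCPG1 and is listed with no count in any library. PIGB shares 443 exon bases with CCPG1 on the opposite strand. It averaged 6.44 ± 0.13 CPM in ATG7/SQSTM1 KO, 6.40 ± 0.37 CPM in ATG7 KO and 5.37 ± 0.45 CPM in control. The part of PIGB in the CCPG1 counts was not tested.

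ER stress genes moved in both directions in ATG7 KO. DDIT3, which encodes the stress factor CHOP, fell to 3.91 ± 0.44 CPM in ATG7 KO, against 7.13 ± 0.98 CPM in control (edgeR adjusted p = 5.41e-06). In ATG7/SQSTM1 KO DDIT3 stood at 8.64 ± 0.86 CPM and was not called against control (edgeR adjusted p = 0.0795). ATF4 fell to 256 ± 7.4 CPM in ATG7 KO, against 328 ± 13 CPM in control (edgeR adjusted p = 1.78e-09). ATF4 was also called lower in ATG7/SQSTM1 KO than in control, at 277 ± 3 CPM (edgeR adjusted p = 1.43e-06). HSPA5, the ER chaperone BiP, rose to 733 ± 19 CPM in ATG7 KO, against 544 ± 8.4 CPM in control (edgeR adjusted p = 4.01e-12). HSPA5 was also called higher in ATG7/SQSTM1 KO than in control, at 653 ± 14 CPM (edgeR adjusted p = 3.82e-08). ATF6, a sensor of ER stress named after its values were seen, averaged 74.7 ± 3 CPM in ATG7/SQSTM1 KO, 82.7 ± 2.3 CPM in ATG7 KO and 71.8 ± 1.5 CPM in control. Like CCPG1 it was called higher in ATG7 KO than in control (edgeR adjusted p = 8.74e-05) and lower in ATG7/SQSTM1 KO than in ATG7 KO (edgeR adjusted p = 0.00199). HERPUD1, also named after its values were seen, averaged 106 ± 5.2 CPM in ATG7/SQSTM1 KO, 47.6 ± 0.95 CPM in ATG7 KO and 48.9 ± 1.7 CPM in control. Against control it was called higher in ATG7/SQSTM1 KO (edgeR adjusted p = 7.97e-15) and was not called in ATG7 KO (edgeR adjusted p = 0.476). Of 12 genes on this list, 3 rose and 5 fell in ATG7 KO against control, 66.7% where 56.7% of all tested genes were called. Against control, 3 rose and 2 fell in ATG7/SQSTM1 KO, 41.7% where 38.6% of all tested genes were called. Their median log2 changes were −0.10 in ATG7 KO (all tested genes −0.02) and 0.05 in ATG7/SQSTM1 KO (all tested genes −0.01).

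TEX264 (ENSG00000164081; chromosome 3, 51662693 to 51704323, plus strand), a receptor that reaches far into the cytosol from the ER surface, had 20.8, 20.6 and 20.5 CPM in ATG7/SQSTM1 KO, 24.2, 24.9 and 23.6 CPM in ATG7 KO, and 23.9, 21.4 and 23.1 CPM in control. The ATG7/SQSTM1 KO libraries were the lowest. It was lower in ATG7/SQSTM1 KO than in ATG7 KO (log2 change −0.23, SE 0.058, edgeR adjusted p = 0.00138). Against control the change in ATG7/SQSTM1 KO was −0.15 (edgeR adjusted p = 0.0515), just past the threshold, and it was called when scaled by library totals alone (edgeR adjusted p = 0.043) and without control replicate 2 (edgeR adjusted p = 0.0215). In ATG7 KO against control it was 0.09 with a 95% interval of −0.03 to 0.21 (edgeR adjusted p = 0.2). TEX264 shares 184 exon bases with RAD54L2 on the same strand.

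Counted together, the receptors were called about as often as all tested genes. In ATG7 KO against control 5 of 8 were called, 2 higher and 3 lower, where 56.7% of all tested genes were called (28.4% higher and 28.3% lower). In ATG7/SQSTM1 KO against control 4 of 8 were called, 1 higher and 3 lower, where 38.6% of all tested genes were called (19.0% higher and 19.6% lower). In ATG7/SQSTM1 KO against ATG7 KO 5 of 8 were called, 2 higher and 3 lower, where 60.5% of all tested genes were called (30.5% higher and 29.9% lower). The libraries of the groups did not overlap for 5, 5 and 7 receptors in these comparisons, where 62.4%, 48.8% and 65.9% of all tested genes did not overlap. The median size of the receptors' log2 changes, 0.17, 0.15 and 0.22, was below that of all tested genes, 0.29, 0.19 and 0.33. RETREG1 alone passed 2-fold, in the comparisons of ATG7 KO with each other group. By size, RTN3 (0.45) and SEC62 (0.44) also exceeded the median of all tested genes in ATG7 KO against control. In ATG7/SQSTM1 KO against control, RETREG1 (0.23), RTN3 (0.21) and ATL3 (0.24) exceeded it by size. The comparisons share libraries and are not independent of each other.

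**Figure D2:**
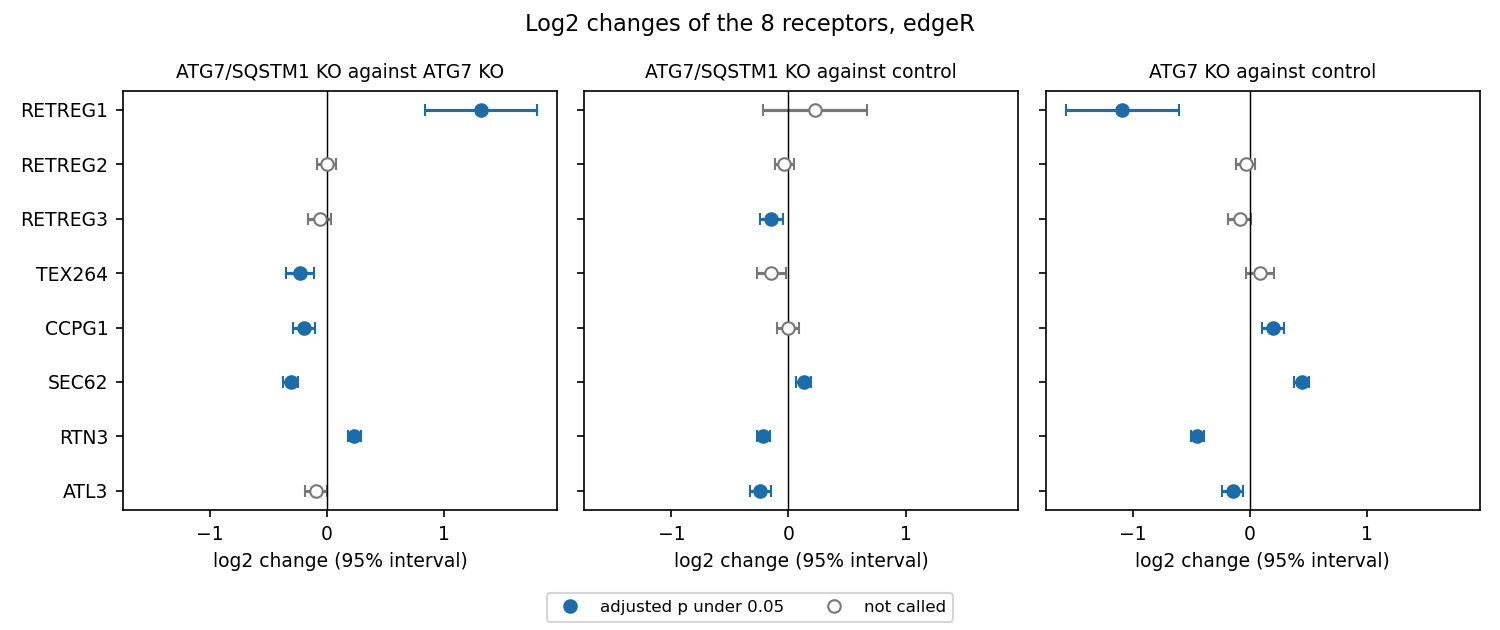
Log2 change (horizontal axis) with its 95% interval for the 8 receptors in ATG7/SQSTM1 KO against ATG7 KO, ATG7/SQSTM1 KO against control and ATG7 KO against control; filled points have an edgeR adjusted p under 0.05. RETREG1 lies farthest from 0, at 1.31 in ATG7/SQSTM1 KO against ATG7 KO and −1.09 in ATG7 KO against control, and RTN3 and SEC62 lie on opposite sides of 0 in each panel.

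The make-up of the receptor pool differed between the groups. The summed level of the 8 receptors was 80.6 to 81.9 CPM per kb in ATG7/SQSTM1 KO, 80.3 to 81.2 CPM per kb in ATG7 KO and 87.1 to 88.8 CPM per kb in control, so the knockouts overlapped each other and lay below control. RTN3 made up 46.9% ± 0.53 of the sum in ATG7/SQSTM1 KO, 40.1% ± 0.69 in ATG7 KO and 50.2% ± 0.28 in control. SEC62 made up 19.1% ± 0.48, 23.8% ± 0.6 and 16.1% ± 0.03 in the same order of groups. Per kilobase there were 2.38 to 2.55 times as much RTN3 as SEC62 in ATG7/SQSTM1 KO libraries, 1.61 to 1.73 times in ATG7 KO libraries and 3.11 to 3.13 times in control libraries, with no overlap. RETREG1 held 0.528% ± 0.083, 0.213% ± 0.033 and 0.416% ± 0.071 of the sum. The shares and ratios use the joined exon lengths, and the short RTN3 forms are counted with the long one. They are descriptions of levels and carry no test.

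**Figure D3:**
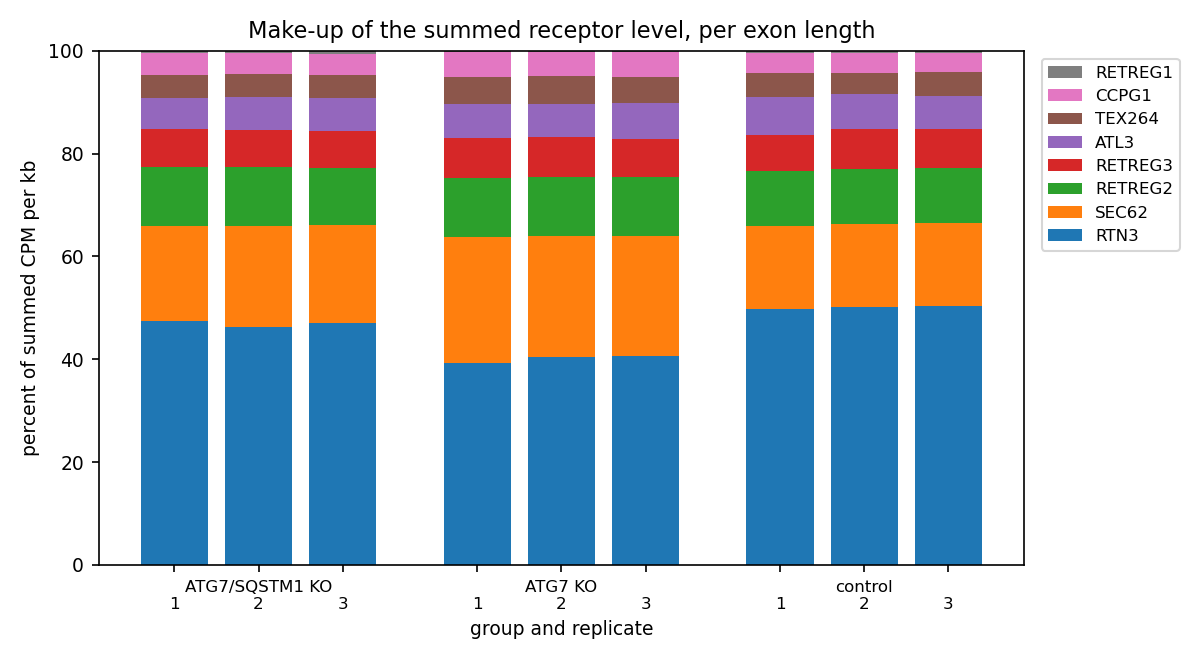
Share of each receptor in the summed CPM per kb of all 8 (vertical axis, percent), one bar per library, in ATG7/SQSTM1 KO, ATG7 KO and control. RTN3 and SEC62 together fill most of every bar, and the SEC62 share is widest in ATG7 KO at 23.4% to 24.5%.

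The LC3 and GABARAP family, the partners to which the receptors bind, changed in both directions. In ATG7 KO against control 4 of 6 tested members rose and 2 fell, where 28.4% of all tested genes were called higher and 28.3% lower. In ATG7/SQSTM1 KO against control 2 rose and 3 fell, where 19.0% of all tested genes were called higher and 19.6% lower. GABARAP fell to 91.5 ± 2 CPM in ATG7 KO, against 124 ± 3.4 CPM in control, and stood at 113 ± 3.3 CPM in ATG7/SQSTM1 KO. MAP1LC3A rose to 3.69 ± 0.32 CPM in ATG7/SQSTM1 KO and 2.33 ± 0.48 CPM in ATG7 KO, against 1.28 ± 0.29 CPM in control. MAP1LC3B2, whose near-identity to MAP1LC3B makes its counts uncertain, rose to 3.88 ± 0.31 CPM in ATG7 KO, against 2.43 ± 0.53 CPM in control. The median log2 changes were 0.15 in ATG7 KO and −0.12 in ATG7/SQSTM1 KO, beside −0.02 and −0.01 over all tested genes.

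Relatives of the receptors that shape the ER divided into rising and falling genes in ATG7 KO, where 6 of 15 rose and 7 fell against control, beside 28.4% and 28.3% of all tested genes. REEP1, which curves tubules, fell to 7.78 ± 0.38 CPM in ATG7 KO, against 19.3 ± 0.64 CPM in control. REEP2, its paralog, fell to 9.15 ± 0.37 CPM in ATG7 KO, against 19.2 ± 0.44 CPM in control, while ARL6IP1, a partner of reticulons and atlastins, rose to 228 ± 5 CPM, against 172 ± 3.8 CPM in control. The other reticulons and atlastins were named after their values were seen. RTN1 averaged 16.1 ± 1.2 CPM in ATG7/SQSTM1 KO, 6.38 ± 0.74 CPM in ATG7 KO and 14.1 ± 1.7 CPM in control. RTN2 averaged 6.14 ± 0.27, 2.32 ± 0.43 and 4.92 ± 0.073 CPM, and ATL1 averaged 4.96 ± 0.11, 2.19 ± 0.44 and 5.00 ± 0.53 CPM, in the same order of groups. RTN1, RTN2 and ATL1 fell in ATG7 KO against control (edgeR adjusted p = 6.3e-09, 9.99e-07 and 8.91e-07) and were not called in ATG7/SQSTM1 KO against control (edgeR adjusted p = 0.134, 0.0554 and 0.965). RTN4 averaged 399 ± 9.6 CPM in ATG7/SQSTM1 KO, 334 ± 9.3 CPM in ATG7 KO and 377 ± 3.5 CPM in control, and was called lower in ATG7 KO (log2 change −0.18, edgeR adjusted p = 8.57e-06) and higher in ATG7/SQSTM1 KO (0.08, edgeR adjusted p = 0.0194), both against control. ATL2 went the other way in ATG7 KO, where it rose to 92.0 ± 1.5 CPM, against 84.0 ± 2.7 CPM in control (edgeR adjusted p = 0.00329). Of the 15 relatives, 3 rose and 1 fell in ATG7/SQSTM1 KO against control, 26.7% where 38.6% of all tested genes were called. The median log2 change was 0.06, beside −0.01 over all tested genes; in ATG7 KO it was −0.08, beside −0.02. RTN1, RTN2, ATL1, REEP1 and REEP2 are known for high levels in neurons. In ATG7 KO against control they fell beside the neuroendocrine markers, whose part was not tested. REEP1 was also called lower in ATG7/SQSTM1 KO than in control, at 12.3 ± 0.79 CPM (log2 change −0.65, edgeR adjusted p = 3.57e-07). REEP2 was not called there, at 19.9 ± 1.5 CPM (edgeR adjusted p = 0.558). The summed neuroendocrine markers stood at 927 to 953 CPM in ATG7/SQSTM1 KO and 831 to 871 CPM in control.

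UFMylation attaches the ubiquitin-like protein UFM1 to ribosomes at the ER and is needed for ER-phagy in human cells. Of its 9 genes 2 rose and 3 fell in ATG7 KO against control, 55.6% where 56.7% of all tested genes were called. Against control, 2 rose and 1 fell in ATG7/SQSTM1 KO, 33.3% where 38.6% of all tested genes were called. UFC1, the conjugating enzyme, fell to 65.3 ± 3.5 CPM in ATG7/SQSTM1 KO and 66.7 ± 1.8 CPM in ATG7 KO, against 78.5 ± 1.8 CPM in control. DDRGK1, the ER anchor of the ligase, rose to 39.7 ± 0.63 CPM in ATG7 KO, against 34.6 ± 1.2 CPM in control, and CDK5RAP3, a further ligase subunit, fell to 59.1 ± 4.1 CPM, against 68.2 ± 3.4 CPM in control. The median log2 change of the list was −0.04 in ATG7 KO and −0.01 in ATG7/SQSTM1 KO, beside −0.02 and −0.01 over all tested genes.

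Among 10 genes of autophagy initiation and ER-phagy regulation, 4 rose and 4 fell in ATG7 KO against control, where 56.7% of all tested genes were called. There were 1 higher and 1 lower in ATG7/SQSTM1 KO against control, where 38.6% of all tested genes were called; the difference between these counts was not tested. ATG101, a subunit of the initiating kinase complex, rose to 36.1 ± 0.59 CPM in ATG7 KO, against 22.9 ± 0.31 CPM in control. ULK1, the kinase, fell to 37.8 ± 3.5 CPM in ATG7 KO, against 51.3 ± 1.6 CPM in control. VAPA, an ER contact protein that binds the soluble receptor CALCOCO1, rose to 201 ± 2.2 CPM in ATG7 KO, against 167 ± 4.4 CPM in control. The median was 0.02 in ATG7 KO and −0.02 in ATG7/SQSTM1 KO, beside −0.02 and −0.01 over all tested genes.

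**Figure D4:**
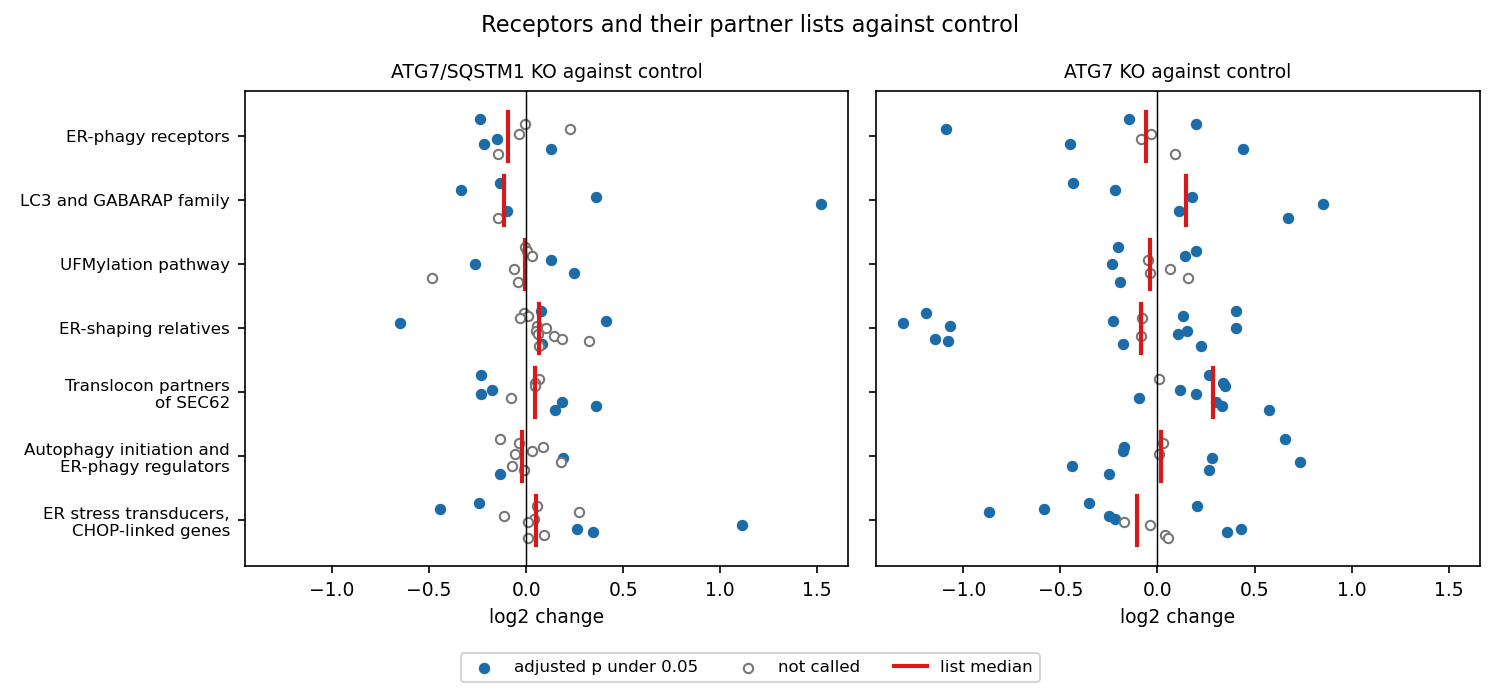
Log2 change (horizontal axis) of each tested gene of the receptor set and 6 partner lists in ATG7/SQSTM1 KO against control and ATG7 KO against control; filled points have an edgeR adjusted p under 0.05 and red bars are list medians. The translocon partners of SEC62 have the highest list median in ATG7 KO, 0.28, against 0.04 in ATG7/SQSTM1 KO.

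Genes with the most similar course over the 9 libraries were sought for each receptor by the smallest root mean square difference between log2 levels centred on each gene's mean, among 11237 protein-coding genes of at least 5 CPM. For RETREG1 these were ALDOC, a neural form of aldolase (difference 0.12), and CASKIN1, a synaptic scaffold (0.13), where the median gene searched differed by 0.60. ALDOC averaged 47.8 CPM in ATG7/SQSTM1 KO, 21.4 CPM in ATG7 KO and 41.3 CPM in control. For SEC62 they were TMBIM6, an ER membrane protein that restrains cell death (0.024), and ECT2 (0.027), where the median gene differed by 0.22. TMBIM6 averaged 279 CPM in ATG7/SQSTM1 KO, 342 CPM in ATG7 KO and 259 CPM in control. For RTN3 they were DDAH1 (0.029) and ZNF292 (0.032), for CCPG1 STAU1 (0.017) and TOMM70 (0.019), for TEX264 LACTB (0.029) and CHCHD2 (0.035), and for ATL3 PRKRIP1 and FIBP (0.038 each). RETREG2 was closest to SBNO1 (0.012) and HR (0.022), and RETREG3 to ACSF3 (0.020) and PHF3 (0.025). Among the receptors themselves RETREG2 and RETREG3 were closest (0.059) and RETREG1 and SEC62 farthest apart (0.73). The measure is not scaled to the size of the changes, so genes that changed little lie close whatever their course.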

How the data were processed

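Total RNA (400 ng) was depleted of rRNA and made into strand-specific libraries with 12 PCR cycles, per the labels' protocols. The submitters' processing notes name HISAT2 and the hg38 genome. No source used here gives the counting program, its annotation or its strand setting. The deposited file holds raw whole counts for each gene. Missing cells (362598) were read as 0, and 1 further column was not used.

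Differences were tested with edgeR 4.0.16 under R 4.3.3: filterByExpr by group (minimum count 10), TMM scaling (factors 0.977 to 1.01), a robust quasi-likelihood fit of 3 group means over 9 libraries, and Benjamini-Hochberg adjustment over 18847 genes, with calls at an adjusted p under 0.05. SE is the size of the log2 change over the root of its F. Scripts were tested on simulated data. Exon lengths and positions come from GENCODE 29 (GRCh38), and 58503 IDs matched. Alternatives were other scalings and filters, DESeq2 1.42.0, fits of 6 libraries, a replicate block and leaving out each library.

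Named partners are the 3 genes of each list with the smallest p in ATG7 KO against control, plus DDIT3 and ATF4. TFEB, TFE3, ATF6, HERPUD1, RTN1, RTN2, RTN4, ATL1 and ATL2 were added after their values were seen. The members, lists and motifs were chosen with earlier results of these data known.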

Additional observations from a re-analysis of the deposited data

How the results depend on the processing

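For the 8 receptors in 3 comparisons, 296 of 312 recomputed results kept their direction and side of the threshold, and no called change turned round. Signs turned only for changes near 0 that were not called. CCPG1 in ATG7/SQSTM1 KO against control became 0.0035 with no low-count filter, 0.0032 with a mean of at least 1 CPM, 0.0036 with only the 6 libraries compared, and between −0.020 and 0.012 when single libraries were left out (0.0043 without control replicate 1, 0.012 without control replicate 2). RETREG2 in ATG7/SQSTM1 KO against ATG7 KO became 0.035 with library totals alone, 0.0081 with a mean of at least 1 CPM, and −0.028 to 0.022 when single libraries were left out (0.022 without ATG7/SQSTM1 KO replicate 3). The calls gained or lost were those of RETREG3, ATL3 and TEX264 given above; the cause was not tested. Among the lists, calls of lower LC3 and GABARAP genes in ATG7 KO went from 2 to 1 with relative log expression factors and with DESeq2, and calls of lower translocon genes from 1 to 0 with DESeq2 and with no low-count filter. Calls of higher UFMylation genes in ATG7 KO went from 2 to 1 with library totals, calls of lower UFMylation genes in ATG7/SQSTM1 KO from 1 to 2 with a mean of at least 1 CPM, and calls of higher ER-shaping genes there from 3 to 1 without ATG7/SQSTM1 KO replicate 1 or 2. Leaving out single libraries moved the small list counts by 1 or 2 calls at most. Scaling by library totals moved the median log2 change of all genes by −0.04 to 0.04.

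Same-numbered libraries did not deviate together (correlations −0.061 to 0.023, and 1 of 9 was highest with its own number). Such correlations cannot show how the libraries were made, and the main fit did not pair them. With the replicate block, 5306 genes were called higher and 5258 lower in ATG7 KO against control, 3512 and 3625 in ATG7/SQSTM1 KO against control, and 5682 and 5580 between the knockouts, with no change in the receptor counts. Depth limits RETREG1 most, at 22 to 72 counts.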
